A study of Homo sapiens with 8 samples.

Results

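The genes described here encode the subunits of RNA polymerase II (Pol II), of the Mediator complex and of TFIID and other TAF-containing complexes. They were all genes on the array whose single platform symbol was POLR2 with a letter from A to L, MED with a number, or TAF with a number, without the polymerase I factors TAF1A to TAF1D. This choice used names alone and gave 60 of 18244 genes: 12 POLR2, 28 MED and 20 TAF genes. MED6, MED25, POLR2J2, POLR2J3 and POLR2J4 had no probe set with a single symbol and were not analysed here. The brightest probe set stood for each gene, and 59 members were among the 11946 genes bright enough to be tested, TAF1L being the exception.

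Cells of the human melanoma line SK-MEL-5, an established line, were measured on 8 Affymetrix arrays in 4 groups of 2. The THZ1 group received THZ1, a covalent inhibitor of the kinase CDK7, at 250 nM for 6 h, with 25 uM DMSO given in its label as well. The DMSO group received 25 uM DMSO for a time that the labels do not give. The siMITF group received an siRNA to MITF, a master regulator of melanocyte identity, and the siCtrl group a control siRNA, neither with a dose or time in the labels. The series' title names CDK7 inhibition in melanoma as the study's subject, and all groups share 1 cell line, in which an siRNA lowers MITF without removing the gene.

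Pol II transcribes messenger RNA genes and is built around the large subunits encoded by POLR2A and POLR2B, whose smaller partners include some that polymerases I and III also use. TFIID, made of TBP and the TAFs, recognises core promoters. Mediator carries signals from transcription factors to Pol II through a head, a middle and a tail held on the scaffold subunit MED14, and a separable kinase module can block its contact with Pol II. CDK7, the target of THZ1, is the kinase of TFIIH and phosphorylates the tail of POLR2A at promoters.

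The deposited signals are normalised to cell number, as the series' design text states, and changes on that scale are called changes per cell. An offset shared by most genes separated the 2 arrays of a group. Array medians over all probe sets were 51.2 and 67.6 with THZ1, 61.3 and 76.1 with DMSO, 40.1 and 32.6 with siMITF, and 51.1 and 59.3 with siCtrl. Changes were therefore also computed after centring each array, which gives changes relative to the median gene, here called relative changes or changes on the centred scale. MITF itself had signals of 1747 and 1168 with siMITF and 3436 and 3936 with siCtrl, a log2 change of -1.35 per cell (SE 0.25, limma adjusted p = 1.62e-06). CDK7 mRNA had 251 and 323 with THZ1 and 395 and 493 with DMSO, although THZ1 acts on the protein. All 7 melanocyte markers with a probe set were tested (summed signals 36500 to 45100 with THZ1, 41500 to 44900 with DMSO, 17400 to 21600 with siMITF and 27200 to 31300 with siCtrl). Of markers of other cells, 0 of 4 keratinocyte, 3 of 5 fibroblast (LUM with a mean signal of 1780) and 1 of 4 leukocyte genes with a probe set were bright enough to test. Summed signals of the fibroblast list were 2630 to 3400 with THZ1, 2340 to 2820 with DMSO, 718 to 957 with siMITF and 1520 to 1840 with siCtrl. Those of the keratinocyte list were 141 to 187 with THZ1, 143 to 204 with DMSO, 81.6 to 87.7 with siMITF and 137 to 158 with siCtrl. Those of the leukocyte list were 216 to 264 with THZ1, 214 to 258 with DMSO, 123 to 155 with siMITF and 196 to 253 with siCtrl. Of the 3 tested fibroblast genes, 2 were higher on the centred scale with THZ1, and 1 was higher and 1 lower with siMITF. The part of these markers in the members' changes was not tested.

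With THZ1, 7 of 12 Pol II genes passed the test as higher on the centred scale and 5 of 6 Mediator head genes as lower, and MED9 and TAF4 fell furthest among the members. Per cell, 7 of 59 members fell and 0 rose, where over all tested genes 10% fell and 0.0753% rose. On the centred scale, 15 members were lower and 16 higher, where over all tested genes 21.1% were lower and 17.7% higher. The members' share of lower calls was thus 25.4% and that of higher calls 27.1%. The median log2 change of the members was -0.18 per cell and 0.02 on the centred scale, against -0.16 and 0.04 over all tested genes. Both THZ1 arrays lay below both DMSO arrays for 20 members per cell (33.9%), against 30% of all tested genes. In bulk RNA, fewer cells of a type and less RNA per cell cannot be told apart. The count of 7 per cell depends on which arrays are used: leaving out THZ1 replicate 1 gave 2, leaving out THZ1 replicate 2 gave 15 and leaving out DMSO replicate 2 gave 1, and it was 0 when each gene's own variance was used (8 members at an unadjusted p under 0.05).

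**Figure D1:**
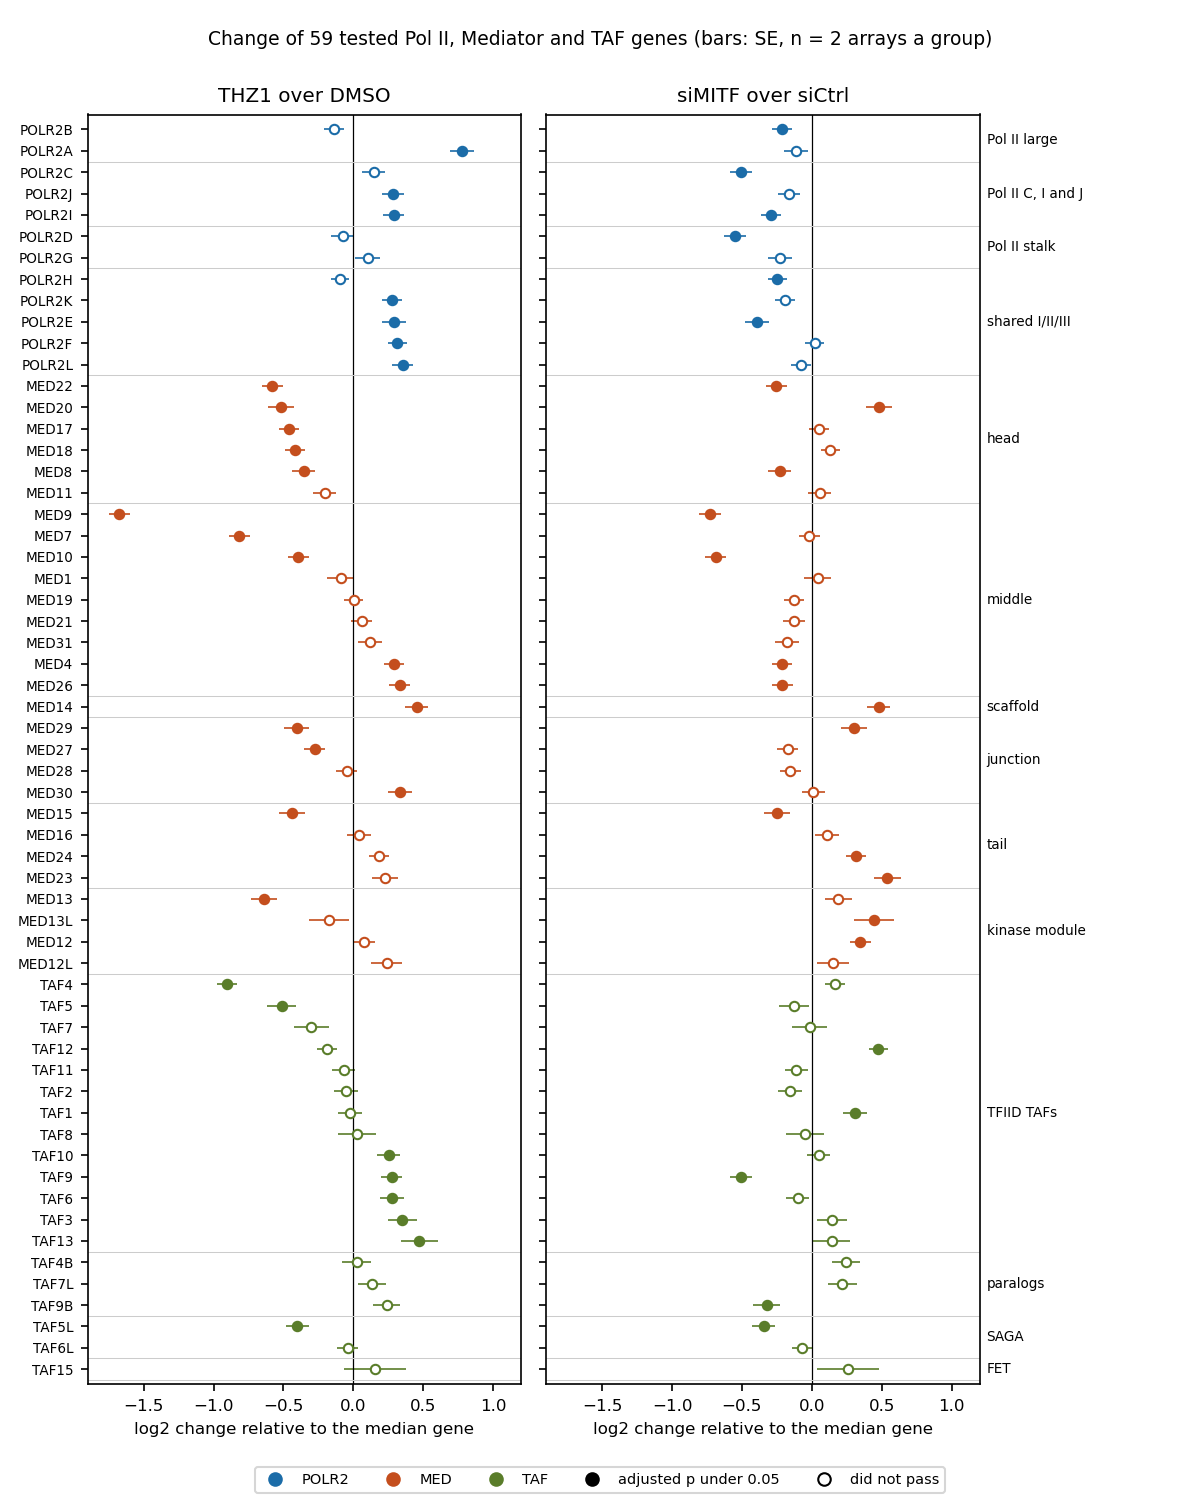
Log2 change on the centred scale (horizontal axis) of each of the 59 tested members (rows, grouped by complex and module), with THZ1 over DMSO on the left and siMITF over siCtrl on the right. Points are limma estimates, bars are SE (n = 2 arrays a group), filled points have an adjusted p under 0.05, and colours mark POLR2, MED and TAF genes. With THZ1 the POLR2 rows lie at -0.14 or higher and all 6 Mediator head rows lie at or below -0.20, with MED9 at -1.67.

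Among the 12 Pol II genes, 0 fell with THZ1 on either scale. On the centred scale 7 (58.3%, against 17.7% of all tested genes) were higher, and the median log2 change of the 12 was 0.28. With quantile normalization in place of centring, 3 were higher and 1 lower (median 0.10), and without the filter on dim probe sets 1 was higher. POLR2A, which encodes the catalytic subunit with the phosphorylated tail, had signals of 374 and 487 with THZ1 and 256 and 308 with DMSO. Both THZ1 arrays lay above both DMSO arrays, as they did for 2 of 59 members (3.39%) and for 0.871% of all tested genes. Its log2 change was 0.78 on the centred scale (SE 0.08, adjusted p = 1.03e-04) and 0.58 per cell, where it did not pass (adjusted p = 0.129). The other 2 POLR2A probe sets had relative changes of 0.54 and 0.11. POLR2B, the other large subunit, had 1153 and 1552 with THZ1 and 1576 and 1820.1 with DMSO, and its relative change of -0.14 did not pass (adjusted p = 0.148). The changes of the large subunits thus had opposite signs, and the gap between the 2 genes was not tested.

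Of the 5 subunits shared with polymerases I and III, 4 were higher on the centred scale with THZ1. These were POLR2L (0.35, adjusted p = 0.0046), POLR2F (0.32, 0.00622), POLR2E (0.29, 0.0222) and POLR2K (0.27, 0.0131). The fifth, POLR2H, had -0.10 (adjusted p = 0.279). Other POLR2E probe sets passed as higher at 0.26 and 0.25 but not at 0.15 and 0.09, and the other POLR2F set, at 0.07, did not pass. POLR2L signals were 4578 and 6055 with THZ1 and 4428 and 5046 with DMSO, so the groups overlapped before centring. POLR2I, a small subunit that contributes to fidelity, and POLR2J, the assembly partner of POLR2C, were also higher (0.29, adjusted p = 0.0119, and 0.28, 0.0191), and POLR2C had 0.15 (adjusted p = 0.179). Of the other POLR2C probe sets, one passed as higher (0.33) and those at 0.15 and 0.16 did not. The POLR2J signal may include its near-identical copies POLR2J2 to POLR2J4. The stalk subunits POLR2D and POLR2G, which sit beside the RNA exit channel, had relative changes of -0.08 and 0.10, neither of which passed.

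Of the 6 tested Mediator head genes, 5 (83.3%, against 21.1% of all tested genes) were lower on the centred scale with THZ1 and 0 higher. The median log2 change of the 6 was -0.44. At least 5 were lower under each of the 18 alternatives tried on that scale, left-out arrays included. MED22 had 106 and 152 with THZ1 and 195 and 269.7 with DMSO, and both THZ1 arrays lay below both DMSO arrays. It fell 1.72-fold per cell (log2 change -0.78, SE 0.25, adjusted p = 0.0198) and had -0.58 on the centred scale (adjusted p = 3.02e-04). MED20 had 124 and 158 with THZ1 and 215 and 268 with DMSO, again without overlap, with -0.72 per cell (adjusted p = 0.0379) and -0.52 on the centred scale (adjusted p = 0.00226). MED20 is a surface subunit of the head, and its second probe set above the filter had a relative change of -0.19, which did not pass. MED17, a central structural subunit of the head, had -0.46 on the centred scale (adjusted p = 8.59e-04), and MED18, the partner of MED20, had -0.42 (adjusted p = 0.00152). MED8 had -0.35 (adjusted p = 0.00766), and MED11, the head subunit that did not pass, had -0.20 (adjusted p = 0.0716). The other probe set of MED18 had -0.07, which did not pass, while those of MED17 and MED8 were also lower (-0.31 and -0.45). Per cell MED22 and MED20 fell and the other 4 head genes did not pass.

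MED9, a subunit of the Mediator middle, fell furthest of all members with THZ1. Its signals were 95.1 and 133 with THZ1 and 398 and 519 with DMSO. The higher THZ1 array was thus below the lower DMSO array by a wide margin. The fall was 3.66-fold per cell (log2 change -1.87, SE 0.25, adjusted p = 3.03e-11) and -1.67 as a log2 change on the centred scale (SE 0.08, adjusted p = 1.80e-06). All 3 MED9 probe sets fell on the relative scale, the other 2 by 1.15 and 1.16. MED7, which hinges the middle to the rest of the complex, had 117 and 158 with THZ1 and 262 and 322 with DMSO. It fell 2.02-fold per cell (log2 change -1.01, adjusted p = 0.00114), again with no overlap between the groups.

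Of the 9 middle genes, MED9 and MED7 included, 3 were lower and 2 higher on the centred scale with THZ1. These shares were 33.3% and 22.2%, against 21.1% and 17.7% of all tested genes. MED10 was lower (-0.39, adjusted p = 0.00281), while MED26, which recruits elongation factors, and MED4 were higher (0.33, adjusted p = 0.00725, and 0.29, 0.0114). MED1, which binds nuclear receptors, had -0.09 on its brightest probe set and did not pass, but its other 2 probe sets were lower, at -0.53 and -0.31. MED19, MED21 and MED31 had 0.00, 0.06 and 0.12. MED14, the scaffold, was higher on the centred scale (0.45, adjusted p = 0.00215), with signals of 225 and 297 with THZ1 and 192 and 239 with DMSO. Those ranges overlap, and the change per cell did not pass. The other MED14 probe set above the filter had a relative change of 0.16, which did not pass.

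At the junction of head and tail, MED29 (-0.41, adjusted p = 0.00664) and MED27 (-0.28, 0.0163) were lower on the centred scale, MED30 was higher (0.33, 0.0107) and MED28 did not pass. The MED29 value rests on its brightest probe set, since the other 4 above the filter had changes of -0.07 to 0.06. In the tail, which transcription factors bind, MED15 was lower (-0.44, adjusted p = 0.00476), and MED16, MED23 and MED24 had 0.04, 0.23 and 0.18 without passing. Among other probe sets, a set of MED16 (0.29), of MED23 (0.48) and of MED28 (0.40) passed as higher, as did sets of MED24 at 0.30 and 0.22. The remaining sets of these genes above the filter did not pass. In the kinase module MED13, which links the kinase to the core complex, fell per cell. MED13 had 362 and 564 with THZ1 and 780.2 and 863 with DMSO, a 1.79-fold fall without overlap (log2 change -0.84, adjusted p = 0.0104). All 5 MED13 probe sets were lower on the centred scale, by 0.38 to 0.64. Its paralog MED13L had -0.18, MED12, which activates the kinase, had 0.08, and MED12L had 0.24, none of which passed.

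Of the 19 tested TAF genes, 3 were lower and 5 higher on the centred scale with THZ1, and 2 fell per cell. These shares were 15.8%, 26.3% and 10.5%, against 21.1%, 17.7% and 10% of all tested genes. TAF4, a scaffold of TFIID that transcription activators contact, had 125 and 167 with THZ1 and 298 and 361 with DMSO, so the groups lay far apart. It fell 2.15-fold per cell (log2 change -1.10, SE 0.25, adjusted p = 3.08e-04) and had -0.90 on the centred scale (SE 0.07, adjusted p = 1.53e-05). Its paralog TAF4B had 0.02 and did not pass (adjusted p = 0.875). TAF5, another TFIID scaffold, had 38.2 and 44.8 with THZ1 and 67.4 and 90.2 with DMSO, with -0.71 per cell (adjusted p = 0.0398) and -0.51 on the centred scale. TAF5 signals lie close to the filter on dim probe sets, which limits that value.

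TAF5L, the counterpart of TAF5 in the coactivator SAGA, was lower on its brightest probe set (-0.40, adjusted p = 0.00447), but its other probe set was higher (0.49), and the mean of the 2 was at 0.01. The higher TAFs were TAF13 (0.47, adjusted p = 0.0191), TAF3 (0.35, 0.0246), TAF6 (0.28, 0.0275), TAF9 (0.27, 0.019) and TAF10 (0.25, 0.0344). The other TAF3 probe sets, at 0.16 and 0.09, did not pass. Of the other TAF6 sets, that at 0.37 passed as higher and those at 0.12 to 0.32 did not pass. TAF3 reads a histone mark at active promoters, while TAF6, TAF9 and TAF10 carry histone-like folds that build the TFIID core. TAF13 had 54.4 and 58.7 with THZ1 and 41.8 and 46.4 with DMSO, the only member beside POLR2A with both THZ1 arrays above the DMSO arrays before centring. It too lies close to the filter. Of the 4 TAF9 probe sets, 3 were at 0.27 to 0.33 and the remaining set was lower (-0.50), and TAF9 shares its locus with AK6, so signals of the 2 genes may mix. TAF1, the largest TAF and a bromodomain protein, had -0.02, and TAF15, an RNA-binding protein of another family, had 0.16 with an SE of 0.22. Of the other TAFs that did not pass, the TFIID subunits TAF7, TAF12, TAF11, TAF2 and TAF8 had -0.30, -0.19, -0.07, -0.05 and 0.02. TAF6L, a counterpart of TAF6 in SAGA, had -0.04, and the paralogs TAF7L and TAF9B had 0.13 and 0.24. Another probe set of TAF7L (0.39) and of TAF9B (0.37) passed as higher, while a further TAF9B set at 0.19 did not.

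**Figure D2:**
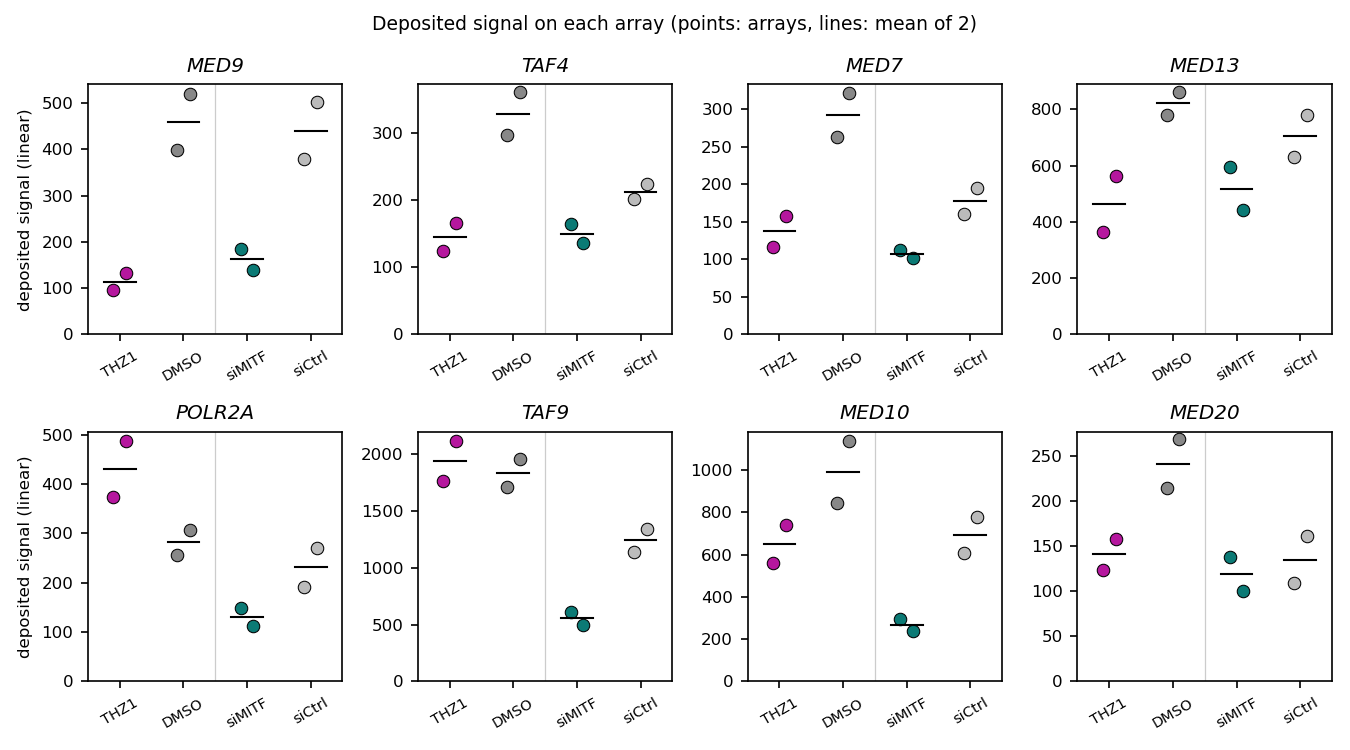
Deposited signal (linear, vertical axes starting at 0) on each array for 8 members, with THZ1 left of DMSO and siMITF left of siCtrl. Points are arrays and lines are the mean of 2 arrays. MED9, TAF4, MED7 and MED13 lie lower on both THZ1 arrays than on both DMSO arrays, POLR2A lies higher, and both siMITF points of MED10 and TAF9 lie under the siCtrl points.

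Promoters are shown for MED9, TAF4, MED7 and MED10, which were lower with THZ1, and for POLR2A, which was higher, a choice made after their values were seen. The runs are the 250 bases upstream of the annotated start, read 5′ to 3′ on the gene's strand, from RefSeq (GRCh38.p14). Both strands were searched for a few short words, and matches are in capitals. The E-box word was CACGTG and the M-box core word was CATGTG, both of which MITF can bind. The word searched for factors of the ETS family was CCGGAAG, and the word searched for YY1 was AAGATGGCG. The word for the factor NF-Y was CCAAT, and the word for a TATA box was TATAAA. The word searched for NRF1 was GCGC, followed after any 1 base by the letters TGCGC. The MED9 run lies at chr17:17476750-17476999 on the plus strand, the TAF4 run at chr20:62065882-62066131 on the minus strand, the MED7 run at chr5:157142866-157143115 on the minus strand, the POLR2A run at chr17:7484116-7484365 on the plus strand and the MED10 run at chr5:6378548-6378797 on the minus strand.
MED9: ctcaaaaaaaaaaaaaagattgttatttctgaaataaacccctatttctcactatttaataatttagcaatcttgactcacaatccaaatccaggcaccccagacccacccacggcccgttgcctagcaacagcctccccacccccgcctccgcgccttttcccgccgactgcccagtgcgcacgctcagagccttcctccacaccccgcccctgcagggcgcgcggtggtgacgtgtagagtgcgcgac
TAF4: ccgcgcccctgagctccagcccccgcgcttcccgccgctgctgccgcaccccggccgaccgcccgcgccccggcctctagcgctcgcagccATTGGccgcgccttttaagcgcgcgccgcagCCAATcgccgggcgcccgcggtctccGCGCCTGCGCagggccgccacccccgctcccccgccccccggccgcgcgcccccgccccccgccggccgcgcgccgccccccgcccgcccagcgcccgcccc
MED7: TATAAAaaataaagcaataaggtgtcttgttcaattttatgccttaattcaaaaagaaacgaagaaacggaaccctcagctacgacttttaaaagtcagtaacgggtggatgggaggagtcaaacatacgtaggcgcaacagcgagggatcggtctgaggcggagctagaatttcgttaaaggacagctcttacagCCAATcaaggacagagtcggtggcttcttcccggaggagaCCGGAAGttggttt
POLR2A: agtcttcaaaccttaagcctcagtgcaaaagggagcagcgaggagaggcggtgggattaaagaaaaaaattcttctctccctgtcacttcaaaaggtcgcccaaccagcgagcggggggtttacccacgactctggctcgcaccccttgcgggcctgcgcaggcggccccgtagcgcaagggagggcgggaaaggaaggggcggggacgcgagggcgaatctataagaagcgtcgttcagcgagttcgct
MED10: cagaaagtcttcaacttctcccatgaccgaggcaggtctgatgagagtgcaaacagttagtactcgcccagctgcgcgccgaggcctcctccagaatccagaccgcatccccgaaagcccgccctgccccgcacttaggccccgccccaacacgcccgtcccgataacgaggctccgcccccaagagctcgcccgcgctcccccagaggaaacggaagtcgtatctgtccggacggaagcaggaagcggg
The TAF4 run held the NRF1 word 102 bases before the start and CCAAT at 159 (reverse strand) and 128 bases before it. The MED7 run held CCGGAAG 14 bases before the start, CCAAT at 54 and TATAAA at 250, the last far from where a TATA box lies. The MED9, POLR2A and MED10 runs held none of these letters, which says nothing of the factors themselves.

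RefSeq promoter windows (300 bases, 250 before to 50 after the start) were matched for 45 of the 59 tested members and for 9809 of all tested genes. CCGGAAG was in 14 member windows (31.1%), against 18.6% over all tested genes, and the NRF1 word in 11 (24.4%), against 11.7%. AAGATGGCG was in 5 (11.1%), against 3.97%, while CACGTG was in 5 (11.1%, against 10.2%) and CATGTG in 2 (4.44%, against 7.05%). CCAAT was in 15 (33.3%, against 36.5%) and TATAAA in 3 (6.67%, against 5.92%). Of the 12 windows of members lower with THZ1, 5 held CCAAT, as did 0 of the 11 windows of members higher with THZ1. Of the 13 windows of members lower with siMITF on the centred scale, 1 held CACGTG and 0 held CATGTG, and of the 8 windows of members higher, 2 held CACGTG. These are matches of letters, described without a test.

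With siMITF, mRNAs of nearly all members were lower per cell, as were most genes on the array. Per cell, 40 of 59 members fell and 0 rose, where over all tested genes 63.4% fell and 0.326% rose. The members' share was 67.8%, close to that background. Both siMITF arrays lay below both siCtrl arrays for 53 members (89.8%), against 89% of all tested genes, and above them for 0 members, against 0.929%. All 59 members had a change below 0, with a median of -0.71, against -0.63 over all tested genes. On the centred scale, 16 members were lower and 9 higher (27.1% and 15.3%), where over all tested genes 24.7% were lower and 19.5% higher. The split depends on the scaling, the filter and the pseudocount (the amount added before taking log2, here 16). Quantile normalization gave 8 lower and 14 higher, and no filter on dim probe sets gave 25 lower and 2 higher. A pseudocount of 1 gave 10 lower and 11 higher, and a pseudocount of 64 gave 22 lower and 12 higher. The per-cell count was 7 without siMITF replicate 2 and 6 without siCtrl replicate 2, and the relative count of 25 was 15 and 14 without these arrays.

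All 12 Pol II genes fell per cell with siMITF, with a median log2 change of -0.85, and 3 of 12 did so without siMITF replicate 2 or without siCtrl replicate 2. Over all tested genes 63.4% fell per cell, with a median of -0.63. On the centred scale, 6 Pol II genes were lower and 0 higher (50% and 0%, median -0.22), against 24.7% and 19.5% of all tested genes. Quantile normalization left 2 Pol II genes lower with a median of 0.01. POLR2D, of the stalk, had 126 and 105 with siMITF and 240.2 and 331 with siCtrl, a fall of 2.27-fold per cell (log2 change -1.18, SE 0.25, adjusted p = 2.33e-05). POLR2C, which pairs with POLR2J to start the assembly of the enzyme, had 314 and 239.9 with siMITF and 549 and 708 with siCtrl (log2 change -1.14, adjusted p = 4.77e-05). Both stayed lower on the centred scale (-0.55, adjusted p = 4.89e-04, and -0.51, 9.86e-04). POLR2E, a shared subunit, had -0.39 (adjusted p = 0.0049), with 3 other probe sets at -0.55 to -0.61 and another at 0.09.

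The other Pol II genes that were lower on the centred scale with siMITF were POLR2I (-0.29, adjusted p = 0.00978), POLR2H (-0.25, 0.014) and POLR2B (-0.21, 0.0326). POLR2H and POLR2B had 0.02 and 0.0061 with quantile normalization. POLR2A had 149 and 113 with siMITF and 192 and 271 with siCtrl, without overlap, which was -0.74 per cell (adjusted p = 0.0066) and -0.11 on the centred scale (adjusted p = 0.308). POLR2G, POLR2J, POLR2K, POLR2L and POLR2F had relative changes of -0.23, -0.16, -0.19, -0.08 and 0.02, none of which passed. The other probe sets of POLR2K (-0.23) and POLR2L (-0.25 and -0.19) did pass as lower, while those of POLR2J (-0.20) and POLR2F (-0.08) did not pass.

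Of the 28 Mediator genes, 17 fell per cell with siMITF, among them all 9 of the middle and 0 of the 4 genes of the kinase module. Their share of 60.7% is close to the 63.4% over all tested genes, and the difference between modules was not tested. Without siMITF replicate 2 or siCtrl replicate 2 the count of 17 was 2. On the centred scale, 7 were lower and 7 higher (25% and 25%), against 24.7% and 19.5% of all tested genes. The median of the Mediator genes was 0.03. MED9 had 184 and 139 with siMITF and 380.1 and 502 with siCtrl, and no siMITF array reached the siCtrl range. The fall was 2.57-fold per cell (log2 change -1.36, SE 0.25, adjusted p = 1.40e-06) and -0.73 on the centred scale (adjusted p = 9.66e-05), with -0.64 and -0.78 on its other 2 probe sets. MED10, another middle subunit, had 297 and 236 with siMITF and 607 and 776 with siCtrl, a fall of 2.50-fold per cell (adjusted p = 2.69e-06) and -0.69 on the centred scale.

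The Mediator genes that were higher on the centred scale with siMITF belonged to several modules. In the tail these were MED23 (0.54, adjusted p = 0.00145) and MED24 (0.32, 0.00556), and in the kinase module MED13L (0.45, 0.0286) and MED12 (0.34, 0.00494). MED14 had 0.48 (adjusted p = 0.00141), MED20 had 0.48 (0.00278) and MED29 had 0.30 (0.0228). None of these genes rose per cell: MED23 signals were 199 and 149.6 with siMITF and 156 and 219 with siCtrl, an overlap, with -0.09 per cell (adjusted p = 0.727). MED20 signals were 138 and 99.8 with siMITF and 109 and 161 with siCtrl, also overlapping. MED24 has 10 other probe sets, of which 9 were above the filter and 1 of these was lower (-0.28), and the relative value of MED26 (-0.21) turned to 0.30 on its other probe set. The other probe sets above the filter of MED14, MED20 and MED13L had 0.15, 0.11 and 0.10, and none passed. Those of MED29 had 0.02 to 0.26 and did not pass either, while that of MED23 was also higher (0.30). MED15, MED22, MED8 and MED4 were lower on the centred scale, at -0.25, -0.26, -0.23 and -0.21. MED27, MED21, MED13 and MED16 did not pass on their brightest probe sets on that scale. Another set of MED27 (-0.56) and of MED21 (-0.37) passed as lower, and a set of MED13 (0.55) and of MED16 (0.24) as higher. The remaining sets of these genes above the filter did not pass.

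Of the 19 tested TAF genes 11 (57.9%) fell per cell with siMITF, against 63.4% of all tested genes. On the centred scale 3 were lower and 2 higher (15.8% and 10.5%), against 24.7% and 19.5% of all tested genes. TAF9 had 611 and 500.1 with siMITF and 1138 and 1344 with siCtrl, so that its siMITF signals stood well below the siCtrl range. Its fall was 2.20-fold per cell (log2 change -1.14, adjusted p = 4.78e-05) and -0.51 on the centred scale (adjusted p = 7.10e-04). Its paralog TAF9B, which can replace it in TFIID and SAGA, had -0.95 per cell (adjusted p = 5.86e-04) and -0.32 on the centred scale (adjusted p = 0.0208). TAF5L was lower on both probe sets (-0.35 and -0.35 on the centred scale). TAF12, the histone-fold partner of TAF4, was higher on the centred scale (0.47, adjusted p = 5.34e-04), as was TAF1 (0.31, 0.0165), with signals of 114 and 92.8 for TAF12 with siMITF and 107 and 127 with siCtrl. TAF4, the TAF that fell most with THZ1, had 165 and 136 with siMITF and 202 and 224 with siCtrl, which did not pass on either scale (adjusted p = 0.0817 per cell). Another probe set of TAF3 (0.55) and of TAF8 (0.51) passed as higher on the centred scale, though neither brightest set passed on that scale. TAF7L, a paralog best known from testis, had 20.0 and 18.4 with siMITF and 30.3 and 31.5 with siCtrl, but 90.7 and 117 with THZ1 and 104 and 115 with DMSO, so that its level differed between the drug and siRNA arrays. These sets were not tested against each other, and their median ERCC spike-in signals differed too, at 48.0 to 53.9 on the drug arrays and 27.6 to 30.8 on the siRNA arrays.

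Both treatments moved 14 of the 59 members on the centred scale, 7 of them the same way. These are 23.7% and 11.9% of the tested members, against 19.4% and 9.92% of all tested genes. MED9, MED10, MED15, MED22, MED8 and TAF5L were lower with both, and MED14 was higher with both. The other probe sets of MED9 and MED8 were also lower with both. The other MED14 set above the filter had 0.16 with THZ1 and 0.15 with siMITF, and neither passed. Other MED15 sets had -0.31 to -0.09 with THZ1 and -0.22 to -0.10 with siMITF, and none passed with siMITF. The other TAF5L set was higher with THZ1 (0.49). MED26, MED4, POLR2E, POLR2I and TAF9 were higher with THZ1 and lower with siMITF, and MED20 and MED29 the reverse, while 17 members (28.8%) passed in neither comparison, against 36.4% of all tested genes. Over the 59 members the relative changes of the 2 comparisons had a Pearson r of 0.14 and a Spearman rho of 0.03, given as a description, since the members share arrays and centring. Over all 11946 tested genes both were 0.04.

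**Figure D3:**
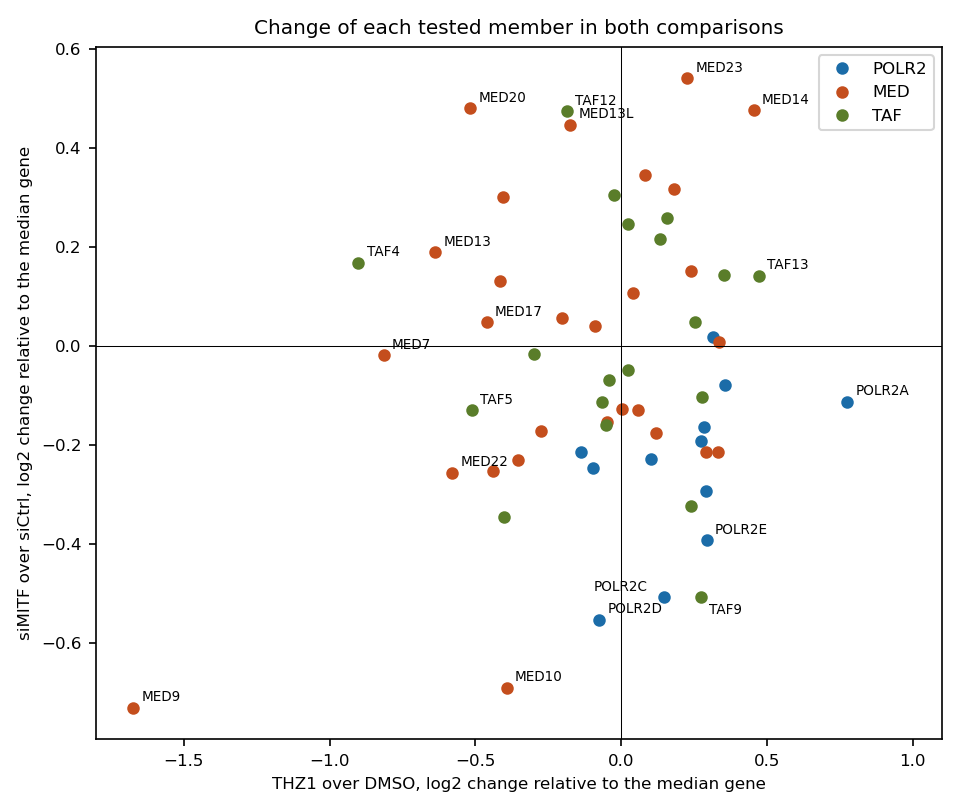
Log2 change on the centred scale of each of the 59 tested members with THZ1 over DMSO (horizontal axis) and with siMITF over siCtrl (vertical axis), coloured by gene family, with some members named. MED9 lies lowest on both axes, POLR2A lies furthest right at 0.78, and most POLR2 points lie right of and below 0.

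The change with THZ1 minus the change with siMITF was tested in the same fit. It was lower for 11 members and higher for 16 on the centred scale, where over all tested genes 20.2% were lower and 21.4% higher. Of the 12 Pol II genes 9 were higher and 0 lower (median 0.46), and with quantile normalization 4 were higher and 1 lower (median 0.13). POLR2A had a difference of 0.89 (SE 0.12, adjusted p = 4.04e-04), TAF9 of 0.78 (adjusted p = 4.78e-04), POLR2E of 0.69 (0.00163), POLR2C of 0.65 (0.00163) and POLR2I of 0.58 (0.00172). The lowest differences were those of TAF4 (-1.07, adjusted p = 6.08e-05), MED20 (-0.999, 3.88e-04), MED9 (-0.94, 1.85e-04), MED13 (-0.83, 9.96e-04) and MED7 (-0.80, 3.85e-04). MED9 thus fell in both comparisons and, on the centred scale, fell further with THZ1.

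Per cell, 7 members had a higher difference and 0 a lower one (9.84% and 0.946% of all tested genes). They were POLR2A (1.32, SE 0.35, adjusted p = 0.0074), TAF9 (1.21), POLR2E (1.12), POLR2C (1.09), POLR2I (1.02), TAF9B (0.99) and MED26 (0.98). This count rests on single arrays, since it was 19 without THZ1 replicate 1 and 0 without THZ1 replicate 2, without DMSO replicate 1, without siMITF replicate 2 or without siCtrl replicate 2. The harvest times after siRNA are not in the labels, so the 2 treatments cannot be matched for time.

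The relative changes with siMITF varied with the length of the gene among the members. Across the 59 members they had a Pearson r of 0.43 and a Spearman rho of 0.44 with log2 gene span, against 0.04 for both over 11940 tested genes with a span, as a description across genes that share arrays. The 16 members lower with siMITF had a median span of 9.86 kb, the 34 that did not pass 19.8 kb and the 9 higher 45.4 kb. Over all tested genes these medians were 28.3, 26.8 and 33.6 kb. Signal also moved with the change: r was -0.40 and rho -0.49 with mean log2 signal over the members, and -0.41 and -0.53 over all tested genes, and its part in the relation with span was not tested. With THZ1 the correlations with span were -0.02 and -0.03 over the members.

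**Figure D4:**
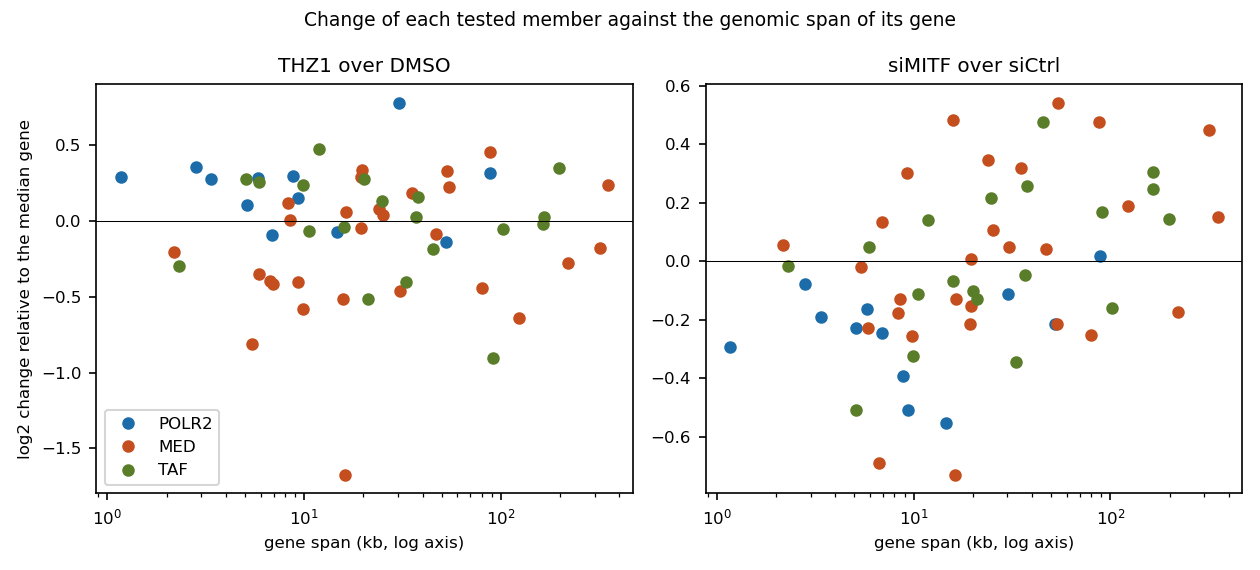
Log2 change on the centred scale (vertical axis) of the 59 tested members against gene span in kb (log axis, from RefSeq GRCh38.p14), with THZ1 over DMSO on the left and siMITF over siCtrl on the right, coloured by gene family. On the right most POLR2 points lie below 0, MED12L and MED13L, the longest members, lie above 0, and the long genes MED27 and TAF2 lie below it. The left panel has no such slope.

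Other genes that work with these complexes were described from lists of names. The shares over all tested genes that stand beside these counts were, with THZ1, 10% lower per cell and 21.1% lower and 17.7% higher on the centred scale. With siMITF they were 63.4% lower per cell and 24.7% lower and 19.5% higher on the centred scale. Of 9 tested general transcription factors outside TFIIH, 2 fell per cell with THZ1 and 4 were lower on the centred scale. GTF2E1, the large subunit of TFIIE, which helps load TFIIH, had 163 and 178 with THZ1 and 469 and 627 with DMSO (log2 change -1.58 per cell, adjusted p = 3.62e-08). TBPL1, a relative of TBP, had -0.75 (adjusted p = 0.028), and GTF2E2, the partner of GTF2E1, had -0.35 on the centred scale. With siMITF 7 of the 9 (77.8%) fell per cell, and GTF2A2 (-0.22) and GTF2F2 (-0.25) were lower on the centred scale.

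Among the Mediator kinases CDK8 and CDK19 and their cyclin CCNC, 0 of 3 passed with THZ1 on either scale. CDK8 had -0.30 on the centred scale (adjusted p = 0.062). With siMITF, CDK19 was higher on the centred scale (0.72, adjusted p = 1.47e-04) with signals of 148 and 108 with siMITF and 102 and 137 with siCtrl, so that it hardly differed per cell (0.08). CCNC fell per cell (-1.12, adjusted p = 6.22e-05).

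Of 11 tested genes for Pol II assembly and for phosphatases of its tail, 6 were lower and 1 higher on the centred scale with THZ1. CTDP1, a phosphatase of the POLR2A tail, had -0.71 (adjusted p = 0.00263) and fell per cell (-0.91, adjusted p = 0.00448). RPAP2, another such phosphatase, had -0.40, and CTDSP2 had -0.30. With siMITF 2 were lower and 4 higher, with CTDSP2 at 0.76, the assembly factor RPAP1 at 0.46 and the assembly factor GPN3 at -0.50. Of 14 SAGA genes, 4 were lower (28.6%, near the share over all tested genes) and 0 higher with THZ1, led by SUPT20H (-0.75, adjusted p = 3.58e-05), SGF29 (-0.72, 6.02e-05) and TRRAP (-0.29, 0.0215). With siMITF 2 were lower and 4 higher, and SUPT3H had 0.47, the acetyltransferase KAT2B -0.48 and TADA1 -0.32.

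Of 18 genes for subunits of polymerases I and III, 10 were lower and 1 higher on the centred scale with THZ1 (median -0.26), set beside 0 lower and 7 higher of the 12 Pol II genes (median 0.28). The 5 subunits shared by polymerases I, II and III, of which 4 were higher, were counted only among the Pol II genes. With quantile normalization the counts were 8 lower and 0 higher for polymerases I and III, and 1 lower and 3 higher for Pol II. POLR1H had -0.54 (adjusted p = 3.13e-04), POLR3C -0.52 (3.72e-04) and POLR3D -0.48 (4.74e-04). With siMITF 6 were lower and 3 higher, among them POLR3K (-0.79, adjusted p = 8.46e-05), POLR3C (-0.53, 3.15e-04) and CRCP (-0.31, 0.00715). POLR3K fell by 1.42 per cell on the log2 scale with siMITF.

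**Figure D5:**
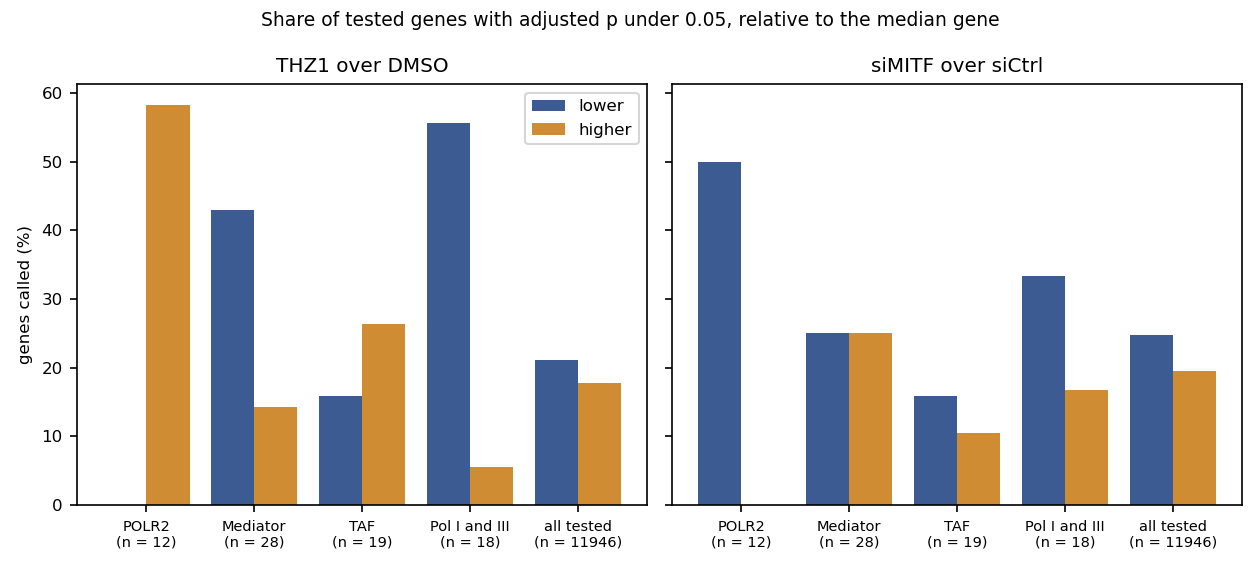
Percent of tested genes with an adjusted p under 0.05 on the centred scale, lower and higher, for POLR2, Mediator, TAF, polymerase I and III genes and all tested genes, with THZ1 over DMSO on the left and siMITF over siCtrl on the right. With THZ1, 58.3% of POLR2 genes were higher and 0% lower, 42.9% of Mediator and 55.6% of polymerase I and III genes were lower, and 21.1% of all tested genes were lower. The 5 subunits shared by polymerases I, II and III are counted under POLR2 only.

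The members' other probe sets bear on these values. The 60 members had 162 probe sets, 15 had a single probe set, and 23 were represented by a probe set of a design that can detect related sequences. Of the 31 members that passed on the centred scale with THZ1, 22 had other probe sets above the filter, and 42 of these 46 had the same sign. Of the 25 that passed with siMITF, 17 had such probe sets, and 38 of 42 had the same sign. TAF4, MED7 and MED10 each rest on 1 probe set. TAF1L, an intronless copy of TAF1, had 23.6 and 15.4 with THZ1 and 16.9 and 34.2 with DMSO, and 10.5 and 14.3 with siMITF and 12.9 and 13.3 with siCtrl, all below the filter at a signal of 39.2, and was not tested.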

How the data were processed

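Gene expression was measured on 8 arrays in 4 groups of 2, assigned from the labels. The values are array signal intensities on a linear scale, deposited by the authors in a series table, summarised with MAS5 per the submitters' processing notes (no version given) and per the series' design text normalised to cell number. Per the labels' protocols, ERCC RNA was mixed into the total RNA by cell number, and the calculation of the normalization is not given in the sources used here. Whether the 2 arrays of a group hold separate cultures is not stated, so the p-values cover only the spread between these arrays, which may be technical. With 2 arrays a group their number limits the precision.

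Of 49495 probe sets, 45284 had 1 gene symbol, 1333 had several, 2682 had none, 100 were ERCC probe sets and 102 were other controls. Signals were analysed as log2(value + 16), so fold changes understate the change of dim genes. A gene was tested if its brightest probe set reached the 40th percentile of mean log2 signal, a signal of 39.2. limma 3.58.1 in R 4.3.3 was fitted to 4 group means over all 8 arrays, with Benjamini-Hochberg adjustment over all 11946 tested genes and a threshold of 0.05. Changes per cell use the deposited scale. Changes relative to the median gene (the centred scale) use arrays centred on the median deviation of their tested genes from the means over all arrays. limma's prior degrees of freedom were infinite for changes per cell, which gives all genes 1 SE and makes small p-values overstate the evidence, and 5.97 on the centred scale beside 4 residual degrees of freedom. Arrays of a group correlated at r = 0.9955 to 0.9961 over the tested genes.

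The members, lists and scales were chosen with earlier results of these data known. The text names members that passed per cell (at most 8 by adjusted p where over 12 passed), the 8 largest falls and rises relative to the median gene, all POLR2 genes, the 5 largest differences each way, members whose probe sets disagreed, and up to 3 genes of each other list. Further members are named to account for each module. The other lists cover general transcription factors, Mediator kinases, Pol II assembly and tail phosphatases, SAGA, and polymerases I and III. Promoters and gene spans came from RefSeq (GRCh38.p14). Gene spans matched for all 60 members, and promoter windows for 45 of the 59 tested members. The fit was run on simulated data with independent noise for THZ1 over DMSO on the centred scale only. The fit per cell was not simulated. Alternatives were the pseudocount, the filter, the probe set rule, the scaling, the variance estimate, the arrays in the fit and a replicate block. Replicate numbers were not shown to pair arrays.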

Additional observations from a re-analysis of the deposited data

How the results depend on the processing

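Over 3674 alternatives for 210 results on named members, 3259 kept their side of the threshold, 315 lost the call, 93 gained it and 7 reversed. A result that did not pass could change sign and still count as kept. MED20 with siMITF per cell, for example, ran from -0.40 to 0.10 without being counted as reversed. Per cell, the 7 members called with THZ1 were 3 with scaling to equal median ERCC signal, 4 with an intensity trend in the prior, 4 with only the 4 arrays compared and 0 with each gene's own variance (8 at an unadjusted p under 0.05), and 1 to 15 without an array each. The 40 called per cell with siMITF were 0 with each gene's own variance (34 unadjusted) and 6 to 45 without an array each. The 7 with a difference per cell were 4 and 11 with pseudocounts of 1 and 64, 11 with the mean of all probe sets, 12 with the replicate block, 0 with ERCC scaling (12 unadjusted), 0 with the trend (15), 0 with own variances (8), and 0 to 19 without an array each. On the centred scale, the 31 with THZ1 were 17 without the filter (14 lower, 3 higher) and 23 to 32 without an array each, the 25 with siMITF 14 to 23 without an array each, and the 27 with a difference 15 without _x_at and _s_at probe sets and 23 to 25 without an array each. Reversed centred values were TAF5L with THZ1 (0.0135) and its difference (0.44) with the mean of probe sets, MED26 with siMITF (0.28) without _x_at and _s_at probe sets, and, with quantile normalization, POLR2B (0.0061) and POLR2H (0.0218) with siMITF and the differences of POLR2F (-0.0407) and POLR2B (-0.27). The cause of these moves was not tested, beyond the smaller number of arrays or probe sets in some. For replicate numbers as pairs, deviations of same-numbered arrays after centring correlated at 0.11 between THZ1 and DMSO and at -0.18 between siMITF and siCtrl. Centring removes the offset shared by most genes of an array, so this check cannot decide on pairing on the per-cell scale. With the replicate block 10 and 45 members passed per cell and 31 and 20 on the centred scale with THZ1 and siMITF, and 25 for the centred difference. A left-out array leaves a lone array that is assumed to vary like the other groups. No limit on signal over background other than the filter was applied, and TAF13, MED12L, TAF4B and TAF7L lie nearest to it among the tested members.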
